A study of Homo sapiens with 4 samples.

Results

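The p53 control circuit was described here as 9 genes, MDM2, MDM4, PPM1D, USP7, TP53BP1, RCHY1, HUWE1, ATM and CHEK2, whose products act on p53 or on one another. They were found by gene symbol in the gene tables, and all 9 of the 9 were present among 15357 genes and passed the filter on low counts, which left 11955 genes for testing. RNA-seq had been performed in RKO cells, an established human colorectal cancer line. The cells carried lentiviral constructs that were stably expressed, either a control shRNA (vector, n = 2) or shRNA-2 against CHD7 (shCHD7_2, n = 2), and both groups grew in the same serum-containing medium. CHD7 is an ATP-dependent chromatin remodeller. Only 1 hairpin against CHD7 was sequenced, so CHD7 loss and any other action of this hairpin cannot be told apart. No label says that replicates were separate cultures, and p-values therefore rest only on the spread between these libraries. For each gene the test also drew on the spread of the other genes, so a p-value is not the spread of that gene alone. The gene for p53 itself is not one of the 9 and was not analysed here. The question was whether RNA of the control circuit differed in cells in which RNA of p53 target genes was higher.

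p53 is a transcription factor that is held at a low level by ubiquitination and degradation. MDM2 is its main ubiquitin ligase, MDM4 is the partner and p53-binding relative of MDM2, and the MDM2 gene is itself switched on by p53, which closes a negative feedback loop. After DNA breaks the kinases ATM and CHEK2 phosphorylate p53 and loosen the hold of MDM2, and the phosphatase encoded by PPM1D, another p53 target gene, removes such phosphates.

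The second MDM2 promoter lies within the first intron and is the classical site of p53 binding at this gene, so its sequence is shown for the feedback arm of the circuit. The window runs from 250 bases before to 50 bases after a RefSeq transcription start, at chr12:68808767-68809066 on the plus strand (GRCh38.p14). Capitals mark matches to the p53 response element, which is 2 half-sites of 10 bases placed end to end.
MDM2 second promoter: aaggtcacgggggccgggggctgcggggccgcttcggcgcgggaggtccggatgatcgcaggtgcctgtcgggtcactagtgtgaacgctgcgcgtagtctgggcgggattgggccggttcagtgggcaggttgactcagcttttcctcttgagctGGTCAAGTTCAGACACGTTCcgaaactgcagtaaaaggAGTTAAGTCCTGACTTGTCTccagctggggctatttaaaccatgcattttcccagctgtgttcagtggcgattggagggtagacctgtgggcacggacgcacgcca
The element at positions 68808923 to 68808942 was 2 letters off the consensus, and the element at positions 68808961 to 68808980 was 3 letters off. Of 35116 promoter windows of all genes, 0.649% held an element at most 2 letters off and 5.2% held one at most 3 letters off, with either strand searched. Among 20 windows of the 9 genes only 2 held an element, and both were overlapping windows of MDM2. The window at the first MDM2 start, chr12:68807922-68808221, held none. A match describes letters and not binding, and the gene-level tables do not separate transcripts from the MDM2 promoters.

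At the threshold used here, none of the 9 genes was called higher in shCHD7_2 cells, and ATM was called lower. A gene was taken to change at an adjusted p under 0.05 by the quasi-likelihood test of edgeR, adjusted over all 11955 genes by the Benjamini-Hochberg method. ATM alone made 11.1% of the 9 genes, beside 11.5% of all genes tested (1373 genes), 4.94% higher (591) and 6.54% lower (782), so the share was near that of genes in general. At an unadjusted p under 0.05 there were likewise 0 genes higher and 1 lower, and DESeq2 called the same numbers. Of all 11955 genes, 3035 had an unadjusted p under 0.05 by edgeR, and DESeq2 called 800. The same background holds for the counts by list below. None of the 9 also reached a 1.5-fold change, which 2.88% of all genes did (344). The median log2 fold change was 0.0012 over the 9 genes and 0.00056 over all genes tested. By plain overlap, the vector libraries and the shCHD7_2 libraries were apart in 5 of 9 genes (55.6%), beside 53.7% of all genes (6418). The 95% interval of 8 of the 9 changes, all but that of ATM, excluded a 1.5-fold change in either direction.

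**Figure D1:**
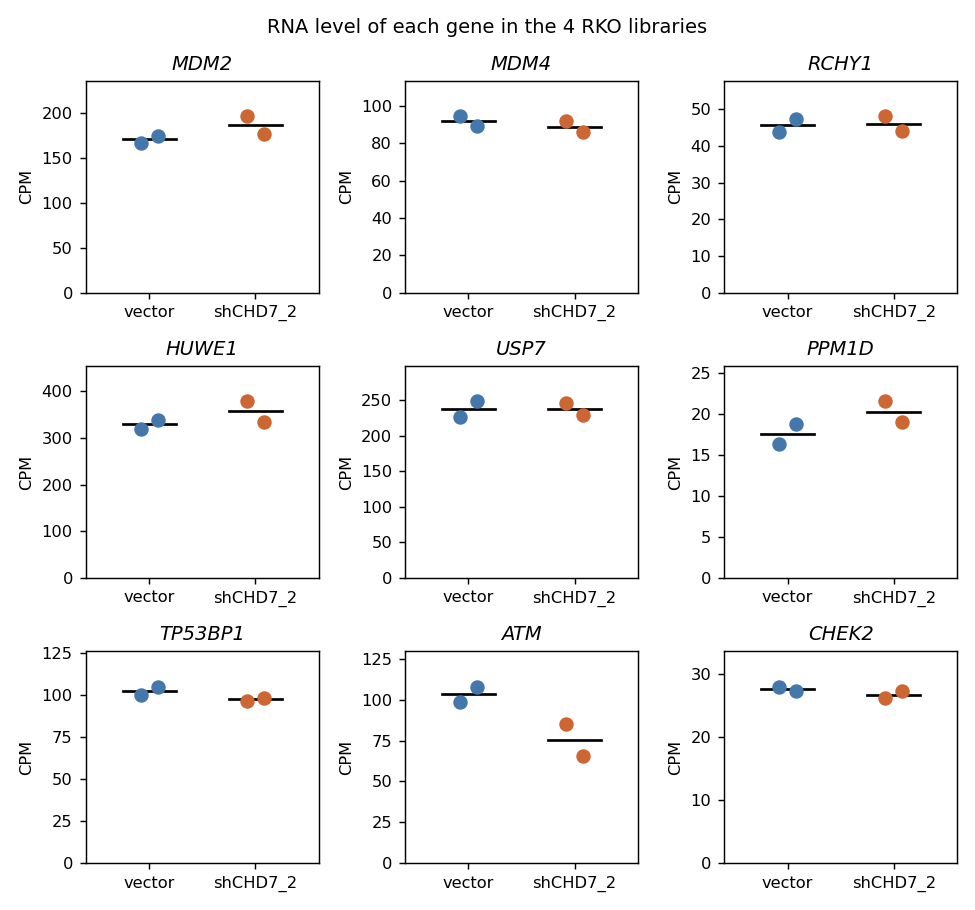
RNA level of each of the 9 genes in CPM (counts scaled to library size, vertical axes from 0), with 1 point for each library and a bar at the mean of each group of 2 libraries. The shCHD7_2 points of ATM (85.5 and 65.5) lie under both vector points (99.0 and 108.3). The groups of MDM2, PPM1D, TP53BP1 and CHEK2 are also apart, with nearest points that differ by little, and those of the other genes overlap.

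The libraries behind these values were alike in size, from 15734679 to 16068650 estimated counts, and the 10 most abundant genes took 5.16% to 5.59% of them. CHD7 itself fell, from 85.4 and 91.0 CPM in vector to 55.5 and 50.1 CPM in shCHD7_2, a log2 fold change of -0.74 (SE 0.088, edgeR adjusted p = 4.15e-06). Libraries of 1 group differed by more than sampling noise, with a chi-square per gene of 3.94 in vector and 6.06 in shCHD7_2. Of 10 epithelial colon markers 8 were in the table, and KRT19 and VIL1 were not. EPCAM, KRT8, KRT18 and CDX2 were detected in each library (EPCAM at 10.2 to 10.8 CPM), while the table listed CDH1 and KRT20 at 0 in 3 of 4 libraries. CLDN3 was low, at 0.499 to 0.627 CPM, as was CLDN4, at 0.0644 to 0.188 CPM. Summed fibroblast markers (3 of 8 in the table) stood at 0.127 to 0.258 CPM in vector and 0.437 to 0.564 in shCHD7_2, leukocyte markers (3 of 6) at 0.190 to 0.322 and 0.312 to 0.439, and endothelial markers (2 of 4) at 0 to 0.0644 and 0.125 to 0.187. These sums of other cell types were thus under 1 CPM in every library.

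MDM2 (chr12:68808172-68850686) was measured at 167.0 and 174.8 CPM in vector and at 196.8 and 176.8 CPM in shCHD7_2. Both shCHD7_2 libraries were above both vector libraries, the second by little. The log2 fold change was 0.13 (SE 0.078, 95% interval -0.035 to 0.29) and did not pass the test (edgeR adjusted p = 0.326). In linear terms the fold was 1.09, with an interval from 0.976 to 1.22. Its counts in the 4 libraries were 2593, 2760, 3155 and 2821. With 1 library left out the log2 fold change ran from 0.045 to 0.20.

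PPM1D (chr17:60600193-60666280), which encodes the phosphatase WIP1, stood at 16.3 and 18.8 CPM in vector and at 21.5 and 19.1 CPM in shCHD7_2. The groups did not overlap, yet the nearest libraries differed by little. The log2 fold change was 0.21 (SE 0.12, 95% interval -0.042 to 0.46), which did not pass the test (edgeR adjusted p = 0.291). It was the least abundant of the 9 genes, with 253 to 345 counts in a library, and had the widest SE. With 1 library left out the log2 fold change ran from 0.11 to 0.32.

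RCHY1 (chr4:75479033-75514715) encodes PIRH2, a ubiquitin ligase of p53 and a further p53 target gene. Its level was 43.9 and 47.4 CPM in vector and 48.1 and 44.0 CPM in shCHD7_2, and the groups overlapped. The log2 fold change was 0.012 (SE 0.092, 95% interval -0.18 to 0.20, edgeR adjusted p = 0.955). Thus the members that are also known as p53 target genes, MDM2, PPM1D and RCHY1, did not pass the test in either direction.

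HUWE1 (chrX:53532096-53686719), a large ubiquitin ligase also called ARF-BP1 that acts on p53, was at 319.7 and 338.9 CPM in vector and at 378.2 and 335.1 CPM in shCHD7_2. One shCHD7_2 library was the highest of the 4, and the other lay between the vector libraries. The log2 fold change was 0.12 (SE 0.077, 95% interval -0.043 to 0.27, edgeR adjusted p = 0.370), and it ran from 0.022 to 0.20 with 1 library left out.

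MDM4 (chr1:204516406-204558120), the MDM2 partner that inhibits p53, was at 94.4 and 89.0 CPM in vector and at 91.8 and 85.9 CPM in shCHD7_2, with overlapping groups. The log2 fold change was -0.05 (SE 0.084, 95% interval -0.22 to 0.13, edgeR adjusted p = 0.785). Its sign turned in 4 of the 14 alternative settings, among them the fits to FPKM. USP7 (chr16:8892097-8963906), the deubiquitinase that spares both MDM2 and p53, was at 227.3 and 248.6 CPM in vector and at 246.4 and 229.8 CPM in shCHD7_2. Each group held a higher and a lower library, and the log2 fold change was 0.0012 (SE 0.077, 95% interval -0.16 to 0.16, edgeR adjusted p = 0.994).

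TP53BP1 (chr15:43403061-43510640), a p53-binding scaffold protein at DNA breaks, was at 100.1 and 104.8 CPM in vector and at 96.2 and 98.3 CPM in shCHD7_2. The shCHD7_2 libraries were below the vector libraries by a small margin, with a log2 fold change of -0.08 (SE 0.081, 95% interval -0.24 to 0.092, edgeR adjusted p = 0.611). CHEK2 (chr22:28687742-28741834), the kinase downstream of ATM, was at 28.0 and 27.4 CPM in vector and at 26.2 and 27.3 CPM in shCHD7_2. These groups were apart only by the gap between 27.4 and 27.3 CPM, and the log2 fold change was -0.05 (SE 0.099, 95% interval -0.26 to 0.15, edgeR adjusted p = 0.795).

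**Figure D2:**
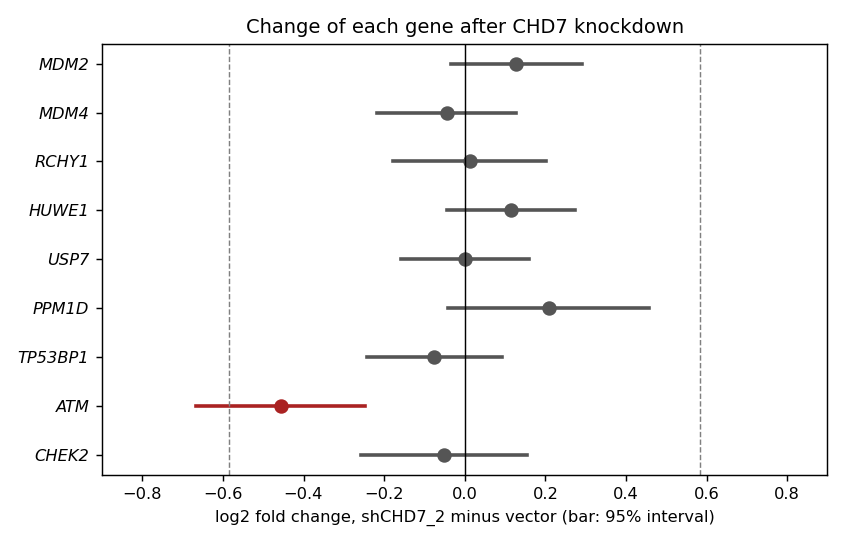
Log2 fold change of each gene, shCHD7_2 minus vector (horizontal axis), with points at the estimate, bars for the 95% interval and dashed lines at a 1.5-fold change in either direction. The interval of ATM, from -0.67 to -0.25, lies wholly below 0, and those of the other 8 genes include 0.

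ATM (chr11:108223067-108369102), the kinase that starts the response to double-strand breaks, was at 99.0 and 108.3 CPM in vector and at 85.5 and 65.5 CPM in shCHD7_2. Both shCHD7_2 libraries were below both vector libraries, and they differed from each other by more than the vector libraries did, with means of 103.6 ± 6.54 and 75.5 ± 14.1 CPM (SD, n = 2 each). The log2 fold change was -0.46 (SE 0.10, 95% interval -0.67 to -0.25), or 0.729-fold, and passed the test (edgeR adjusted p = 0.00406). Of all genes tested, 3.57% had a lower log2 fold change. An exact permutation test of 2 against 2 libraries could not give a two-sided p under 0.333. Without shCHD7_2 replicate 2 the log2 fold change was -0.28 (edgeR adjusted p = 0.0522), and ATM missed the threshold in 5 of the 14 alternative settings while staying lower in each of them.

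ATM shares its start region with NPAT, a histone gene regulator read in the opposite direction from a start 429 bases away. NPAT was at 45.2 and 50.1 CPM in vector and at 52.3 and 47.1 CPM in shCHD7_2, with a log2 fold change of 0.06 (SE 0.093, 95% interval -0.13 to 0.25, edgeR adjusted p = 0.733). The groups of NPAT overlapped. In GENCODE 29 both NPAT and C11orf65 overlap ATM on the opposite strand, NPAT over 159 bases and C11orf65 over 60584 bases of the gene spans. The strand setting of the counting was not given in the sources used here, so reads from the shared stretches were not separated. C11orf65 held 15 to 23 counts in a library, beside 1045 to 1709 for ATM. The other genes with a coding gene overlapping on the opposite strand were MDM2, TP53BP1, RCHY1 and CHEK2, and their reads were not separated from those of the partner either.

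ATM relatives in the same kinase family were examined beside it. ATR, which answers to stalled replication forks, was at 59.1 and 66.1 CPM in vector and at 61.1 and 53.4 CPM in shCHD7_2, with a log2 fold change of -0.13 (edgeR adjusted p = 0.415). PRKDC, the catalytic subunit of DNA-PK, had a log2 fold change of -0.07 (edgeR adjusted p = 0.671). Neither passed the test, and the difference between them and ATM was not tested.

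The 3′ UTR of ATM also held short words that moved with direction across the whole table. The word AGCTATT, together with the word GAAGCTA and a further word, GCTATTA, had been chosen on these libraries, so they count only as a description. All of these words overlap in their letters. GAAGCTA ends with the letters AGCTA that begin AGCTATT, and AGCTATT ends with the letters GCTATT that begin GCTATTA. At least 1 of them was present in the longest 3′ UTR of 22.1% of 11684 genes tested, of 54.9% of 767 genes that fell and of 13.6% of 583 genes that rose. Longer 3′ UTRs hold more words, and 41.9% of 1486 genes with a 3′ UTR of 2876 to 4489 bases, around the ATM length of 3594 bases, held one. The sites of the 9 genes are shown with 5 bases on each side, 5′ to 3′ in the direction of the transcript, with the word in capitals (GRCh38, GENCODE 29).
ATM, chr11:108368655-108368683, plus strand: atagtGAAGCTAtcagaGAAGCTAataaa
MDM2, chr12:68840940-68840956, plus strand: gttcaAGCTATTctcct
MDM2, chr12:68843961-68843977, plus strand: atactGAAGCTAgaacc
MDM2, chr12:68844058-68844074, plus strand: gtgacAGCTATTtttac
MDM4, chr1:204550101-204550117, plus strand: ccttcAGCTATTtcatg
TP53BP1, chr15:43404883-43404899, minus strand: atgcgGAAGCTAgggac
RCHY1, chr4:75481292-75481308, minus strand: ctttgAGCTATTtgaat
ATM thus held 2 words close together, MDM2 held 3 in a 3′ UTR of 10837 bases, and MDM4, TP53BP1 and RCHY1 held 1 each. PPM1D, USP7, HUWE1 and CHEK2 held none. Of the 5 genes with a word, ATM was the one that changed, beside 421 that fell and 79 that rose among all 2582 genes tested with a word. MDM2 with more words did not pass the test in either direction. The part of these words in the ATM result was not tested.

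Levels between genes were compared in FPKM, which is scaled to transcript length. In vector cells USP7 was highest at 46.1 FPKM (mean), followed by MDM2 at 23.4 and HUWE1 at 22.9, then CHEK2 at 16.1, TP53BP1 at 10.7, RCHY1 at 10.5, ATM at 9.91, MDM4 at 9.42 and PPM1D at 3.74. The libraries of MDM2 and HUWE1 overlapped in that order, as did neighbours from TP53BP1 down to MDM4. The vector libraries of ATM, at 8.74 and 11.08 FPKM, lay on either side of those of MDM4, at 9.76 and 9.07 FPKM. In shCHD7_2 cells both ATM libraries, at 8.34 and 6.17 FPKM, were below those of MDM4, at 10.05 and 9.06 FPKM. The 4 highest were in the same order by mean, USP7 (47.5), MDM2 (26.3), HUWE1 (25.5) and CHEK2 (15.66 and 16.34 in its libraries), and PPM1D (4.46) was again last. RCHY1 (11.0) and TP53BP1 (10.6) changed places, with libraries that overlapped in both groups. The ratio of MDM2 to MDM4 was 2.36 and 2.63 in vector and 2.77 and 2.74 in shCHD7_2, a description of deposited FPKM with no test.

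**Figure D3:**
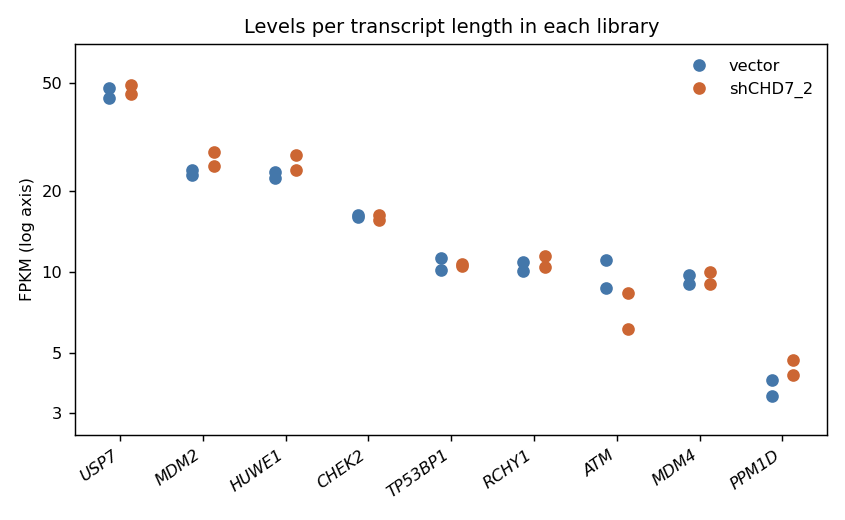
FPKM of the 9 genes on a log axis, ordered by their mean in vector, with 1 point for each library and colours for the groups. USP7 is highest and PPM1D lowest in all 4 libraries, and ATM is the gene whose groups stand farthest apart.

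FPKM also depends on the transcript length that the authors' estimation gave each library. For ATM the length implied by counts and FPKM was 11.2 and 9.60 kb in vector and 10.4 and 10.7 kb in shCHD7_2. These lengths varied 1.16-fold between libraries, more than for 97.5% of 10956 genes, whose median was 1.01-fold. They overlapped between groups, and ATM counts, which need no length, gave the values above.

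The 5 genes nearest to MDM2 in their pattern over the 4 libraries were SLC39A9, CCP110, MRTFB, KPNA6 and PAQR3. Likeness was the Euclidean distance between centred log2 CPM values over 4 samples and 10421 genes, and these distances ran from 0.0128 to 0.0168. Their log2 fold changes were 0.12 to 0.13, and with so few libraries many genes can share such a pattern.

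The targets of the circuit had changed in these libraries. Of 48 p53 target genes tested (of 50 listed), 23 rose and 0 fell in shCHD7_2 (47.9% by edgeR), beside 4.94% higher and 6.54% lower of all genes. Of the 23, 10 rose by at least 1.5-fold, and the median log2 fold change of the 48 was 0.34. DESeq2 called 15 higher and 0 lower, and at an unadjusted p under 0.05 there were 31 higher and 0 lower. The list was chosen with results of these data known and is no independent evidence. CDKN1A, which encodes the cell cycle inhibitor p21, rose from 127.7 and 112.5 CPM in vector to 243.5 and 252.1 CPM in shCHD7_2, a log2 fold change of 1.04 (edgeR adjusted p = 4.66e-09). GDF15, a secreted stress cytokine, rose by a log2 fold change of 1.54 (edgeR adjusted p = 3.96e-10), and TP53INP1, a cofactor that promotes p53 phosphorylation, by 1.71 (edgeR adjusted p = 1.03e-09). Without vector replicate 2 only 12 of the target genes rose, and without the filter on low counts 5.

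MDM2, PPM1D and RCHY1 were set beside these targets. Of the 48 targets, 39 had a larger log2 fold change than MDM2, 32 a larger one than PPM1D and 45 a larger one than RCHY1. Intervals lying wholly above that of the member were found for 11, 9 and 16 targets. MDM2, PPM1D and RCHY1 are not themselves on this list, which was chosen with results of these data known. Set beside it, the estimate of MDM2 lay among the smaller changes, and this rank is only a description. The intervals of most targets did not lie wholly above that of MDM2, which reached up to 1.22-fold.

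The remaining regulators of p53 were described by role. Of 116 genes tested (122 symbols named, 117 of them in the table), 2 rose and 6 fell, 6.90% beside 11.5% of all genes. Their median log2 fold change was -0.05. These counts moved up or down when 1 library was left out, where fewer samples enter by construction.

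Among 20 other kinases that phosphorylate p53, including CHEK1, HIPK2 and the casein kinases, 0 rose and 0 fell by the edgeR test or by DESeq2, with a median log2 fold change of -0.06. At an unadjusted p under 0.05 there were 4 higher and 2 lower. Their changes ran from -0.20 to 0.26. Of the subunits of AMPK, the energy-sensing kinase, 5 of 7 were tested and 0 passed the test in edgeR or DESeq2 (1 lower at an unadjusted p under 0.05). PRKAA1, its catalytic subunit, was at 165.7 and 174.1 CPM in vector and at 158.8 and 141.6 CPM in shCHD7_2, with a log2 fold change of -0.18 (edgeR adjusted p = 0.161). Around ATM, 0 of 15 genes of ATM activation and break signalling, such as MRE11, RAD50 and NBN of the break-sensing complex, passed the test in edgeR or DESeq2 (2 higher and 2 lower at an unadjusted p under 0.05), with a median log2 fold change of -0.02.

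Of 21 other ubiquitin ligases acting on p53, 0 rose and 1 fell in edgeR, beside 3 higher and 3 lower at an unadjusted p under 0.05 and 0 in either direction with DESeq2. It was RNF2, the catalytic Polycomb ligase, at 55.3 and 57.1 CPM in vector and 47.4 and 45.6 CPM in shCHD7_2 (log2 fold change -0.27, edgeR adjusted p = 0.0431). Of 10 other deubiquitinases 1 rose and 0 fell, as with DESeq2 and at an unadjusted p under 0.05. USP2, a deubiquitinase of MDM2, rose from 1.87 and 1.27 CPM to 3.87 and 3.95 CPM, a log2 fold change of 1.32 (SE 0.27, edgeR adjusted p = 0.00132). USP2 was the only one of the 116 regulators that both passed the test and reached 1.5-fold, and its level was below 4 CPM in each library.

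Proteins that bind MDM2, most of them of the ribosome or nucleolus, held 4 of the 8 changed regulators. The list also held PSMD10 and DAXX, which did not pass the test. Of 15 tested 1 rose and 3 fell, beside 4.94% higher and 6.54% lower of all genes, and DESeq2 called the same numbers. At an unadjusted p under 0.05 there were 2 higher and 8 lower, and the median log2 fold change was -0.15. RPS27L, itself a p53 target gene, rose from 59.6 and 62.8 CPM to 75.9 and 85.7 CPM, a log2 fold change of 0.40 (edgeR adjusted p = 0.00406). RPL23, a ribosomal protein able to restrain MDM2, fell by 0.42 on the log2 scale (edgeR adjusted p = 3.34e-04). RPS7 fell by 0.25 (edgeR adjusted p = 0.0279) and RPL5 by 0.22 (edgeR adjusted p = 0.0339). Ribosomal protein genes have many pseudogene copies, so the assignment of their reads is uncertain.

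Of 16 enzymes that acetylate, deacetylate or methylate p53, 0 rose and 1 fell in edgeR and DESeq2 alike, beside 1 higher and 5 lower at an unadjusted p under 0.05. EHMT2, a lysine methyltransferase, went from 109.1 and 98.1 CPM to 82.1 and 86.2 CPM, a log2 fold change of -0.30 (edgeR adjusted p = 0.0232). Of 14 p53 cofactors 0 rose and 1 fell in both tools, beside 1 higher and 1 lower at an unadjusted p under 0.05. PPP2R5C, a regulatory subunit of protein phosphatase PP2A, fell from 139.1 and 139.6 CPM to 103.8 and 100.9 CPM, a log2 fold change of -0.44 (edgeR adjusted p = 5.12e-04), close in size to that of ATM.

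**Figure D4:**
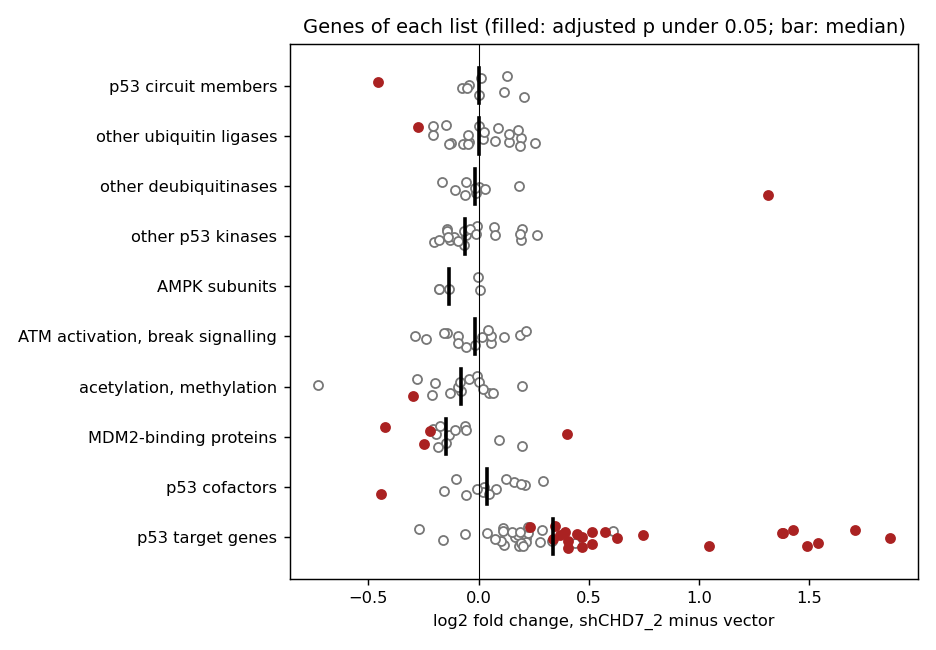
Log2 fold change, shCHD7_2 minus vector (horizontal axis), of each gene in the 9 member genes, the other regulators by role and the p53 target genes, with filled points for an adjusted p under 0.05 and a bar at each median. The target genes lie to the right, with a median of 0.34, while the medians of the regulator lists run from -0.15 to 0.04.

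**Figure D5:**
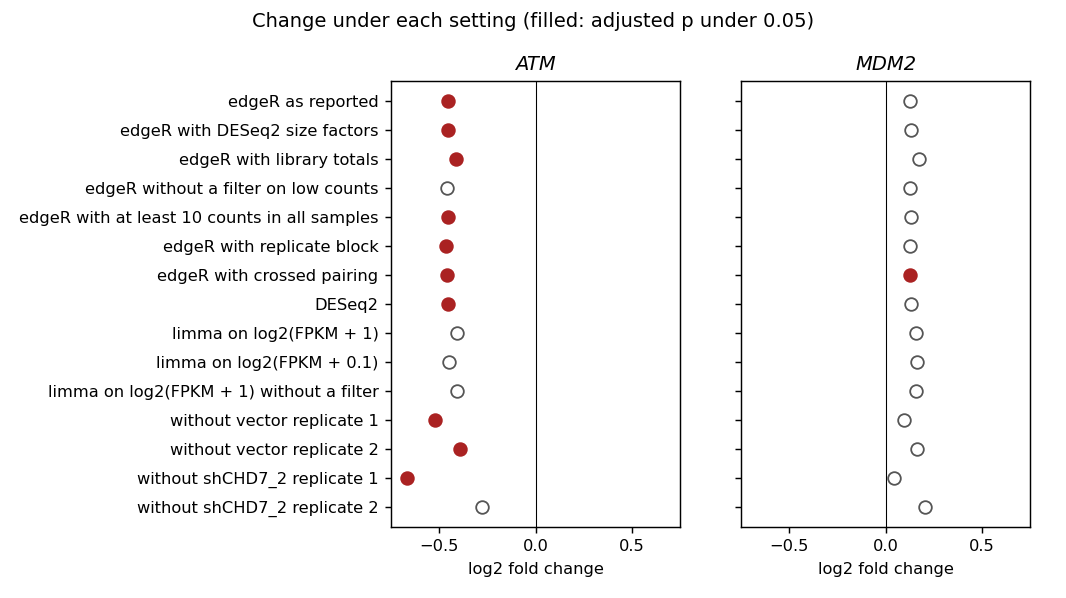
Log2 fold change (horizontal axis) of MDM2 and ATM under each setting of the analysis (rows), with filled points for an adjusted p under 0.05. ATM is lower throughout, from -0.67 to -0.28, and MDM2 is higher throughout, from 0.045 to 0.20, with 1 filled point under the crossed pairing of replicate numbers.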

How the data were processed

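RNA from 4 RKO libraries had been sequenced after oligo-dT selection. The submitters' processing notes name Bowtie2, RSEM, DESeq2 and hg38 without versions. The authors deposited estimated counts per gene (expected counts, of which 13.6% to 14.7% were not whole) and FPKM, which the authors scaled to library size and transcript length. The 9 genes and all gene lists were chosen with earlier results of these data known.

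Groups and replicate numbers came from the labels, and 0 columns of per-sample values were unused. Expected counts were rounded, filtered with filterByExpr, scaled by TMM (factors 0.983 to 1.02) and tested with edgeR 4.0.16 in R 4.3.3 (glmQLFit, glmQLFTest, group only, Benjamini-Hochberg over 11955 genes). Intervals (95%) used the quasi-likelihood dispersion, which edgeR moderates over all genes, and the procedure was tested on simulated data. The biological coefficient of variation was 0.0579. CPM are counts scaled to the TMM-adjusted library size. Alternatives used DESeq2 1.42.0, limma 3.58.1 on log2(FPKM + 1) or log2(FPKM + 0.1) for genes whose FPKM averaged 1 or more, other scalings and filters, a replicate block and each library left out.

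Named genes were the 9 members, CHD7, up to 3 called genes with the smallest p in each direction of each list, and the 5 genes nearest to MDM2 with a mean of at least 5 CPM. NPAT, C11orf65, ATR, PRKDC and PRKAA1 were named after their values were seen. Promoters came from RefSeq (GRCh38.p14) and 3′ UTRs from GENCODE 29. Figures were drawn with Python 3.11.15 and matplotlib 3.10.9.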

Additional observations from a re-analysis of the deposited data

How the results depend on the processing

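Each value was recomputed under up to 14 alternatives, and PPM1D, TP53BP1, HUWE1 and CHEK2 kept their direction and stayed short of the threshold in all of them. ATM stayed lower but missed the threshold without the filter on low counts (-0.46, edgeR adjusted p = 0.170), with limma on log2(FPKM + 1) (-0.41, adjusted p = 0.0682, and 0.318 without a filter), on log2(FPKM + 0.1) (-0.45, adjusted p = 0.0703) and without shCHD7_2 replicate 2 (-0.28, adjusted p = 0.0522). The number of the 9 genes that fell was therefore 0 and not 1 in those settings and 0 under the added 1.5-fold requirement. It was 0 to 1 with 1 library left out, and the number that rose was 0 in each of these. The sign turned for MDM4 with limma on log2(FPKM + 1) (0.018, with or without a filter) and log2(FPKM + 0.1) (0.020) and without shCHD7_2 replicate 2 (over single omissions -0.097 to 0.0017), for USP7 without a filter (-0.0027) and over single omissions (-0.062 to 0.067), and for RCHY1 (-0.057 to 0.074). Over single omissions MDM2 ran from 0.045 to 0.20, PPM1D from 0.11 to 0.32 and HUWE1 from 0.022 to 0.20.

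Of all genes, 1373 passed the test, against 197 without a filter, 800 with DESeq2, 24 with unfiltered limma, 344 with the 1.5-fold requirement, 817 without vector replicate 1 and 607 to 1727 over all single omissions, the lowest without vector replicate 2. Target genes that rose numbered 23, against 5 without a filter, 15 with DESeq2, 0 with unfiltered limma, 10 with the 1.5-fold requirement and 12 to 20 over single omissions. Other regulators that rose numbered 2, against 0 without a filter or with unfiltered limma, 1 with the 1.5-fold requirement, and 1 to 7 over single omissions (1 without vector replicate 1, 7 without shCHD7_2 replicate 1). Those that fell numbered 6, against 2 with library totals, 1 without a filter, 2 with limma at either pseudocount, 0 unfiltered, 0 with the 1.5-fold requirement and 2 to 11 over single omissions (2 without either vector library, 11 without shCHD7_2 replicate 1). The cause was not tested, except that fewer samples or an added requirement enter by construction.

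With the replicate block 755 genes passed, ATM was lower (-0.47, adjusted p = 0.00614), MDM2 stayed short of the threshold (0.13, adjusted p = 0.648), and 2 other regulators fell. Same-numbered libraries did not deviate together (correlation -0.252 across genes), so the numbers were not taken to pair them. With 2 libraries in a group, unlike-numbered libraries, which a crossed pairing joins, have the same correlation with the opposite sign by construction. A crossed pairing, added after seeing the data, called 3751 genes, 1 member higher (MDM2, 0.13), 35 target genes higher, 17 other regulators higher and 29 lower. The precision is limited by 2 libraries in a group, as the printed intervals show.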
